A study of Sus scrofa with 6 samples.

Results

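The genes described here encode core proteins of the spliceosome in single pig oocytes. They were taken by symbol: every listed gene whose pig symbol began with SNRP, SNRNP, SF3A, SF3B, PRPF or U2AF, or was LSM followed by a single digit. This gave 50 of the 19300 genes listed in at least 1 oocyte. Of these, 46 had a mean of at least 1 FPKM over the 6 oocytes and were compared, among 11495 such genes in all. FPKM divides the number of fragments of a gene by its length and by the depth of the library. The sample notes name a poly-dT of 24 nt for each library. Whether FPKM makes levels of different genes comparable in such libraries was not tested, so orders of genes by level hold for FPKM only. The members were 8 Sm genes, 5 genes of the U1 and U2 particles, 3 of the U5 particle and the tri-snRNP, 3 of the minor U11/U12 particle, 7 LSm genes, 9 SF3 genes, 2 U2AF genes and 13 PRPF genes. LSM4 and U2AF1 were matched to no listed gene and were not analysed here.

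The spliceosome removes introns from pre-mRNA. Its small nuclear ribonucleoproteins (snRNPs) carry a small nuclear RNA held in a ring of Sm proteins, or, for U6, a ring of LSm proteins. U2AF and the SF3 complexes select the 3' splice site and the branch point, and PRPF proteins serve in the U4/U6 and U5 particles and in the rearrangements that activate the machine. The growing oocyte stores both transcripts and snRNPs, and it falls silent in transcription before the germinal vesicle breaks down.

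The samples were 3 BCB-positive and 3 BCB-negative oocytes at the germinal vesicle stage, with 1 oocyte in each library. BCB stands for brilliant cresyl blue, which is decolourised by glucose-6-phosphate dehydrogenase, an enzyme active in growing oocytes, so an oocyte that stays blue is classed as positive and is taken as one that has finished growing. Both classes came from antral follicles, were stripped of cumulus cells and of the zona pellucida, and received no maturation culture, no other agent and no genetic change. The labels give no strain, age or animal for any oocyte. A class thus counts as 1 sample of 3 cells, with no test between classes, and the SD beside a value is the spread between oocytes of a class.

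Summed expected counts lay between 7820374 and 9238987 in BCB-positive oocytes and between 7122749 and 7668881 in BCB-negative oocytes. BCB-positive 3 stood apart from the other libraries. Its correlation with the others averaged 0.874, where the other oocytes had 0.905 to 0.915, and its FPKM values summed to 668430, against 784781 to 811744 in the rest. All 10 oocyte markers looked for were listed, ZP3 at 5602 to 14619 FPKM in BCB-positive oocytes and at 8266 to 18993 FPKM in BCB-negative oocytes, although the oocyte genes NLRP5 and NOBOX stayed at or below 2.11 FPKM. The 8 listed cumulus and granulosa markers, of 12 looked for, summed to 35.9 to 47.8 FPKM in BCB-positive oocytes and to 30.7 to 44.5 FPKM in BCB-negative oocytes, most of it from INHBA, at 26.1 to 31.9 FPKM in BCB-positive oocytes and 19.8 to 30.0 FPKM in BCB-negative oocytes, and FST, at 8.89 to 15.0 FPKM in BCB-positive oocytes and 10.8 to 16.0 FPKM in BCB-negative oocytes. Aromatase CYP19A1 did not pass 0.18 FPKM, and STAR, at 0.40 to 1.79 FPKM in BCB-positive oocytes, had 0.05 to 0.37 FPKM in BCB-negative oocytes. The 4 listed leukocyte markers, of 6 looked for, summed to 3.28 to 6.54 FPKM in BCB-positive oocytes and to 1.77 to 4.27 FPKM in BCB-negative oocytes. The defining leukocyte gene PTPRC did not pass 0.56 FPKM, and CD3E, at 2.37 to 4.60 FPKM in BCB-positive oocytes, had 0.11 to 1.19 FPKM in BCB-negative oocytes. The 5 listed stromal and endothelial markers, of 6 looked for, summed to 0.68 to 4.76 FPKM in BCB-positive oocytes and to 0.04 to 3.87 FPKM in BCB-negative oocytes. The part of these other cell types in the values below was not tested.

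The difference between classes was the mean log2(FPKM + 1) of BCB-positive oocytes minus that of BCB-negative oocytes, a scale that understates the difference of low genes. Of the 46 members compared, 7 were at least 1.5-fold higher in BCB-positive oocytes, where 18.9% of all genes compared were, and 5 were at least 1.5-fold lower, where 9.46% of all genes were. The members' shares were 15.2% higher and 10.9% lower. Requiring also that the oocytes of the classes did not overlap left 3 higher members, PRPF3 and SNRPB2 among them, and 3 lower members, SNRPD3, SNRPC and LSM7. Each count is 6.52% of the members, beside 5.75% of all genes for the higher and 2.66% for the lower direction. As deposited, the members' shares were near those of all genes, apart from the lower direction without overlap. That count depended on scaling and on BCB-positive 3. It was 4 of 46 after scaling by size factors, again a larger share than the 3.67% of all genes that were lower without overlap. After scaling to a common sum of FPKM it was 1, SNRPD3, where 2.00% of all genes were lower without overlap. The count of higher members without overlap was 3 under both, where 4.55% of all genes were higher after size factors and 7.21% after a common sum. The split without the overlap rule, 7 higher and 5 lower as deposited, was 6 and 8 after size factors and 8 and 2 after a common sum. All genes shifted in the same directions, to 15.3% higher and 12.2% lower after size factors and to 24.2% higher and 8.15% lower after a common sum. Without BCB-positive 3 there were 3 higher members without overlap, with PRPF3 and SNRPB2 among them, and 1 lower, SNRPD3. Of all genes, 7.19% were then higher and 4.40% lower. The median difference over the members was -0.10, against 0.11 over all genes compared (0.02 after size factors and 0.20 after a common sum).

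**Figure D1:**
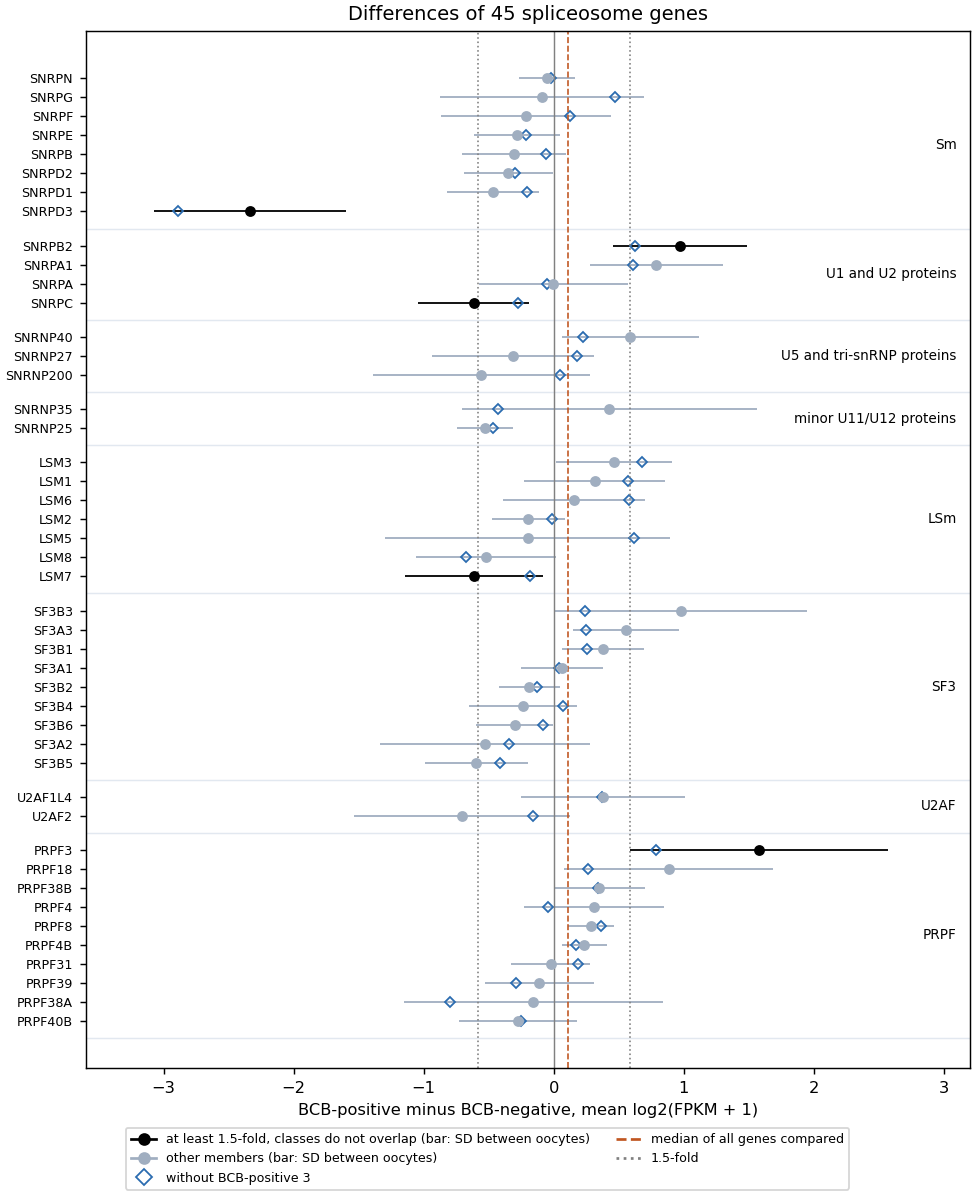
Difference of mean log2(FPKM + 1), BCB-positive minus BCB-negative, for 45 members, with the SD within classes, pooled, as bars and open diamonds for the value without BCB-positive 3. SNRPD3 lies at -2.33, beyond every other member, and the 5 members shown that are at least 1.5-fold apart without overlap are in black.

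The Sm proteins come first by role, since their ring is the common core of the U1, U2, U4 and U5 snRNPs. SNRPD3, NCBI gene 100153480, encodes SmD3, a subunit of that ring. It had 58.1, 41.1 and 157.8 FPKM in BCB-positive oocytes, against 439.7, 398.2 and 286.7 FPKM in BCB-negative oocytes. All BCB-positive oocytes lay below all BCB-negative oocytes, and BCB-positive 3 lay nearest to them. The class means were 85.7 ± 63.1 FPKM in BCB-positive oocytes and 374.9 ± 79.1 FPKM in BCB-negative oocytes (SD, n = 3 each). The log2 difference was -2.33 with a pooled SD of 0.74, and without BCB-positive 3 it was -2.89. Among the 463 genes that were lower in BCB-positive oocytes without overlap, at any fold, SNRPD3 had the 5th lowest difference. Among all 11495 genes compared, with or without overlap, it had the 14th lowest.

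The depth behind SNRPD3 was ample in each library. Its expected counts were 350, 261 and 1151 in BCB-positive oocytes and 2738, 2451 and 1641 in BCB-negative oocytes. Summed over a class this is 1762 of 25252092 counts, or 69.8 CPM (counts scaled to the library total; 95% exact Poisson interval 66.6 to 73.1), in BCB-positive oocytes, and 6830 of 22412543 counts, or 304.7 CPM (297.6 to 312.1), in BCB-negative oocytes. These intervals cover only the counting error of reads summed over a class and taken as independent. The protocol names no molecular identifiers, so repeated reads of the same molecule cannot be told apart, and the error in counting molecules is not covered. The intervals also leave out the spread between oocytes. By FPKM, SNRPD3 ranked 1789th, 2399th and 827th among all genes in BCB-positive oocytes, against 292nd, 318th and 441st in BCB-negative oocytes. Each BCB-negative oocyte thus ranked SNRPD3 above every BCB-positive oocyte. In the naming assembly no other gene overlapped SNRPD3, and no other gene had identical values.

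The other 7 Sm genes did not share the size of that difference. SNRPD1 (SmD1), the most abundant Sm gene, had 958, 1274 and 639.8 FPKM in BCB-positive oocytes, against 1317, 1245 and 1260 FPKM in BCB-negative oocytes, with a difference of -0.47. SNRPD2 (SmD2), the partner of SmD1 in the ring, had 123, 184 and 135 FPKM in BCB-positive oocytes, against 151, 249 and 168 FPKM in BCB-negative oocytes, a difference of -0.35. For both genes the classes overlapped, and BCB-positive 3 was the lowest oocyte only for SNRPD1. SNRPB encodes SmB, the direct ring partner of SmD3, and its pig entry is classed as a non-coding RNA in the naming table. It was the least abundant Sm gene on average, with 83.0, 56.7 and 40.8 FPKM in BCB-positive oocytes, against 59.8, 70.8 and 86.8 FPKM in BCB-negative oocytes, a difference of -0.31. SNRPN encodes SmN, a close relative of SmB. It had 130.1, 185.6 and 146.1 FPKM in BCB-positive oocytes, against 154.3, 143.1 and 177.5 FPKM in BCB-negative oocytes, a difference of -0.05. Neither SNRPB nor SNRPN separated the classes.

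The remaining ring subunits, SmE, SmF and SmG, form a trimer during assembly. SNRPE had 168, 292 and 192 FPKM in BCB-positive oocytes, against 230.5, 307 and 240.0 FPKM in BCB-negative oocytes, a difference of -0.28. SNRPF had 319, 565 and 209 FPKM in BCB-positive oocytes, against 286, 616 and 333 FPKM in BCB-negative oocytes, a difference of -0.21. SNRPG had 208, 326 and 80.6 FPKM in BCB-positive oocytes, against 132, 232 and 215 FPKM in BCB-negative oocytes, a difference of -0.09. The 3 genes of the trimer overlapped between classes, and oocyte 2 of each class was the highest of its class for all 3. Without BCB-positive 3 the differences of SNRPF and SNRPG were 0.13 and 0.47. SNRPF overlaps CCDC38 and SNRPG overlaps PCYOX1 in the naming assembly; the strand of counting is not given in the sources used here, so reads of such overlapping genes cannot be told apart. PCYOX1 stood at 12.7 to 19.4 FPKM in BCB-positive oocytes and at 11.7 to 16.1 FPKM in BCB-negative oocytes, and CCDC38 at or below 1.01 FPKM. In all, 18 of the 50 members overlap another gene there, among them the low SF3A2 and PRPF40B, whose neighbours PLEKHJ1 and FAM186B reached 25.5 and 18.2 FPKM.

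All 8 Sm genes had a lower mean log2 level in BCB-positive oocytes, as deposited and after size factors. As deposited, 4826 of all 11495 genes compared were lower, and 2164 of the 4511 with a listed length under 1500 bases. After scaling to a common sum, SNRPG and SNRPN were higher, leaving 6 Sm genes lower, and without BCB-positive 3, SNRPF and SNRPG were higher. The median difference of the 8 was -0.29, and -0.13 without BCB-positive 3. Summed, the Sm genes had 2048, 2925 and 1601 FPKM in BCB-positive oocytes, against 2771, 3262 and 2767 FPKM in BCB-negative oocytes. Without SNRPD3 the sums were 1989, 2884 and 1443 FPKM in BCB-positive oocytes and 2331, 2863 and 2481 FPKM in BCB-negative oocytes. The classes overlapped in both sums.

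**Figure D2:**
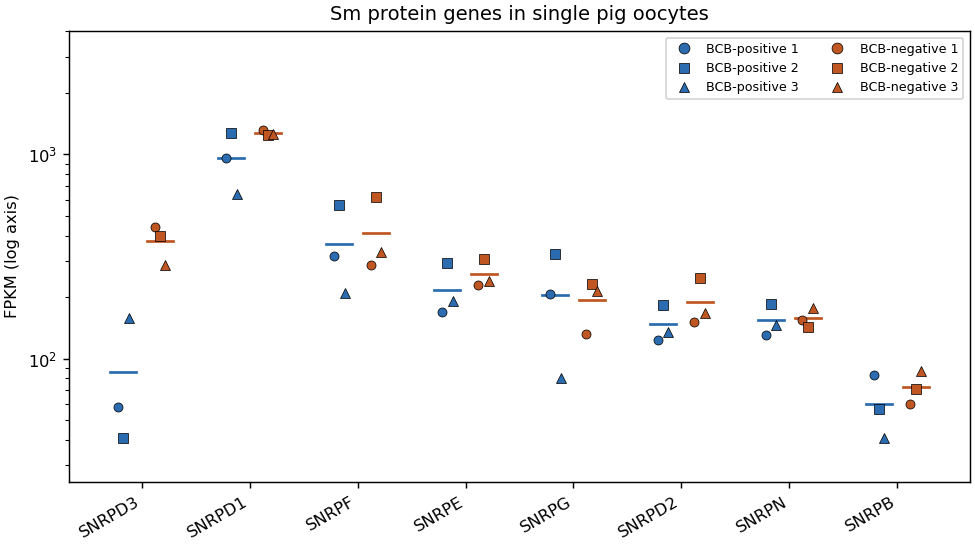
FPKM of the 8 Sm genes in each oocyte on a log axis, BCB-positive in blue and left, BCB-negative in orange and right, with a bar at the mean FPKM of each class. SNRPD3 is the only Sm gene whose classes do not overlap, at 41.1 to 157.8 FPKM in BCB-positive oocytes and 286.7 to 439.7 FPKM in BCB-negative oocytes.

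A ratio within an oocyte does not depend on scaling between libraries. SNRPD3 divided by the median of the other 7 Sm genes was 0.345, 0.141 and 1.08 in BCB-positive oocytes, against 2.85, 1.60 and 1.33 in BCB-negative oocytes. SNRPD3 thus lay above the typical Sm gene in each BCB-negative oocyte, below it in BCB-positive 1 and 2, and close to it in BCB-positive 3. The mean log2 ratio was -1.40 ± 1.46 in BCB-positive oocytes and 0.86 ± 0.57 in BCB-negative oocytes (SD, n = 3 each). SNRPD3 made up 2.84%, 1.41% and 9.86% of the summed FPKM of the 8 Sm genes in BCB-positive oocytes, against 15.9%, 12.2% and 10.4% in BCB-negative oocytes. In order of level among the 8 it was 8th, 8th and 4th in BCB-positive oocytes, against 2nd, 3rd and 3rd in BCB-negative oocytes. The ratio shows unequal differences between SNRPD3 and the other Sm genes and does not show that the others were level.

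SNRPD3 had a pair of listed transcripts, of 986 and 763 bases, and both were lower in BCB-positive oocytes without overlap. The transcript of 986 bases had 17.1, 15.7 and 56.4 FPKM in BCB-positive oocytes, against 247.5, 193.6 and 132.3 FPKM in BCB-negative oocytes, a difference of -2.85 with an SD of 0.77. The transcript of 763 bases had 41.0, 25.4 and 101.4 FPKM in BCB-positive oocytes, against 192.2, 204.7 and 154.4 FPKM in BCB-negative oocytes, a difference of -1.92 with an SD of 0.72. The longer form made up 29.5%, 38.2% and 35.7% of SNRPD3 in BCB-positive oocytes, against 56.3%, 48.6% and 46.2% in BCB-negative oocytes. Its share was thus lower in each BCB-positive oocyte than in any BCB-negative oocyte. The split of reads between the forms is an estimate that the authors made, and its error is not given in the sources used here.

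**Figure D3:**
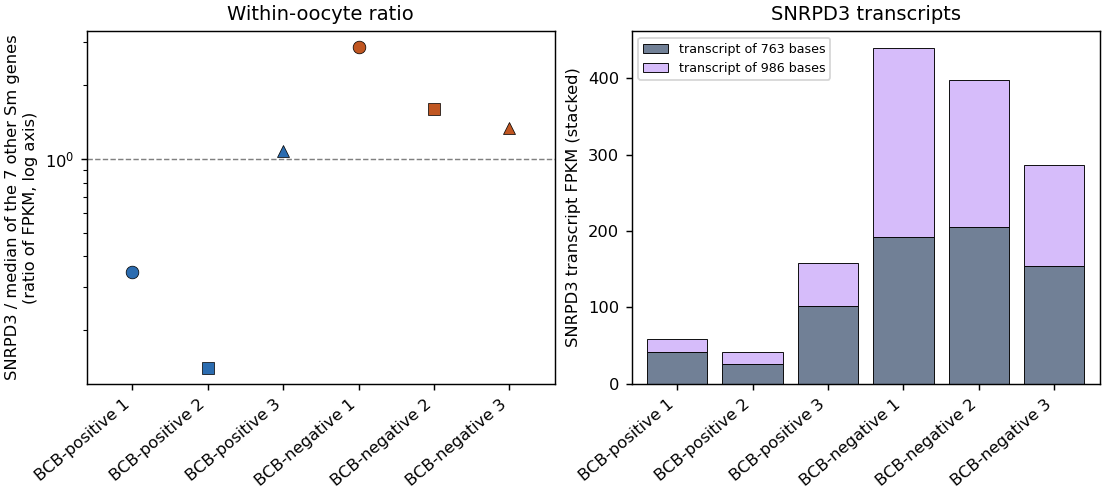
Left, SNRPD3 FPKM divided by the median FPKM of the other 7 Sm genes in each oocyte, on a log axis with a dashed line at equal levels; right, FPKM of the SNRPD3 transcripts of 763 and 986 bases stacked for each oocyte. The ratios are 0.141 to 1.08 in BCB-positive oocytes and 1.33 to 2.85 in BCB-negative oocytes, and both transcripts are lower in BCB-positive oocytes.

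The U1 and U2 proteins sit on the snRNPs that first mark the 5' splice site and the branch point, and they differed in both directions. SNRPC encodes U1-C, which helps U1 to bind the 5' splice site, and was the most abundant of all 50 members. It had 1452, 1167 and 646.6 FPKM in BCB-positive oocytes, against 1601, 1526 and 1609 FPKM in BCB-negative oocytes. The difference was -0.61 with an SD of 0.43, and the classes did not overlap. Without BCB-positive 3 it was -0.28, and after a common sum it was -0.52, both short of 1.5-fold. SNRPB2 encodes U2-B'', which binds U2 RNA. It had 61.3, 73.3 and 139.0 FPKM in BCB-positive oocytes, against 51.2, 49.8 and 31.4 FPKM in BCB-negative oocytes, a difference of 0.97 with an SD of 0.51. Each BCB-positive oocyte was above every BCB-negative oocyte, and the difference without BCB-positive 3 was 0.63. SNRPB2 overlaps an unnamed gene in the naming assembly that was matched to no listed gene.

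SNRPA1 encodes U2-A', the partner of U2-B'' on U2 RNA. It had 40.8, 83.7 and 85.9 FPKM in BCB-positive oocytes, against 48.3, 41.3 and 27.4 FPKM in BCB-negative oocytes, a difference of 0.79, and BCB-positive 1 lay within the range of the BCB-negative oocytes. SNRPA, which encodes U1-A, a binder of U1 RNA, had 5.08, 16.9 and 10.6 FPKM in BCB-positive oocytes, against 10.8, 8.08 and 10.8 FPKM in BCB-negative oocytes. SNRNP70 encodes U1-70K, the third protein particular to U1, and did not reach the level needed for comparison. It had 0.99, 0.16 and 0.27 FPKM in BCB-positive oocytes, against 0.08, 0 and 0.27 FPKM in BCB-negative oocytes. The U1 proteins thus ran from SNRNP70, at or below 0.99 FPKM, to SNRPC, at or above 646.6 FPKM.

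Among the U5 and tri-snRNP proteins no gene separated the classes. SNRNP27, a protein of the tri-snRNP and the most abundant of these genes, had 260.1, 288 and 98.1 FPKM in BCB-positive oocytes, against 204, 266 and 259.9 FPKM in BCB-negative oocytes, a difference of -0.31. SNRNP200 encodes Brr2, the helicase that unwinds U4 from U6, and was the least abundant, with 2.5, 5.88 and 0.39 FPKM in BCB-positive oocytes, against 3.75, 2.99 and 4.61 FPKM in BCB-negative oocytes. SNRNP40, a WD-repeat protein of U5, had 62.0, 54.7 and 125.8 FPKM in BCB-positive oocytes, against 52.8, 62.6 and 37.1 FPKM in BCB-negative oocytes. Its difference of 0.59 was past 1.5-fold with overlap, and it was 0.22 without BCB-positive 3.

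The minor spliceosome uses a U11/U12 particle to remove a rare class of introns. SNRNP25 was the most abundant of its 3 members, with 105, 110.1 and 94.1 FPKM in BCB-positive oocytes, against 161, 173 and 119 FPKM in BCB-negative oocytes. The classes did not overlap, and the difference of -0.53, with an SD of 0.22, was short of 1.5-fold as deposited and past it after size factors. SNRNP25 overlaps POLR3K, which stood at 68.8 to 108.0 FPKM in BCB-positive oocytes and 68.8 to 74.1 FPKM in BCB-negative oocytes. SNRNP35 had 0.55, 2.53 and 12.8 FPKM in BCB-positive oocytes, against 2.57, 2.26 and 1.66 FPKM in BCB-negative oocytes, with 1 of the BCB-positive oocytes above all others. SNRNP48 did not reach the level for comparison, with 0.17, 0 and 0.20 FPKM in BCB-positive oocytes, against 0, 1.07 and 0 FPKM in BCB-negative oocytes.

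LSm proteins form 2 related rings. LSM2 to LSM8 make the nuclear ring on U6, and LSM1 takes the place of LSM8 in a cytoplasmic ring that acts in mRNA decay. LSM5 was the most abundant, with 805, 1426 and 195 FPKM in BCB-positive oocytes, against 577, 574 and 1023 FPKM in BCB-negative oocytes. BCB-positive oocytes held both its highest and its lowest value. LSM7 had 239.5, 249 and 99.0 FPKM in BCB-positive oocytes, against 264, 289 and 277 FPKM in BCB-negative oocytes. The classes of LSM7 did not overlap and the difference was -0.61 with an SD of 0.53, but it was short of 1.5-fold without BCB-positive 3 (-0.18), without BCB-negative 2 (-0.58) and after a common sum (-0.52). LSM7 overlaps SPPL2B, which stood at 10.8 to 17.6 FPKM in BCB-positive oocytes and 14.5 to 23.7 FPKM in BCB-negative oocytes.

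The cytoplasmic ring's own subunit LSM1 was the least abundant LSm gene, with 4.94, 3.55 and 2.03 FPKM in BCB-positive oocytes, against 4.53, 1.54 and 2.02 FPKM in BCB-negative oocytes. LSM8, its nuclear counterpart, had 94.4, 244 and 210.1 FPKM in BCB-positive oocytes, against 269, 262 and 205 FPKM in BCB-negative oocytes, a difference of -0.52 with overlap. The level of LSM8 was above that of LSM1 in each oocyte. LSM1 overlaps BAG4, which stood at 3.32 to 7.67 FPKM in BCB-positive oocytes and 0.95 to 3.24 FPKM in BCB-negative oocytes. LSM8 overlaps CTTNBP2, which did not pass 4.42 FPKM. LSM2, LSM3 and LSM6 lay between 52.4 and 480.9 FPKM, with differences of -0.20, 0.46 and 0.16 and overlap of the classes. Over the 7 LSm genes the median difference was -0.20, and without BCB-positive 3 it was 0.58. The sums were 1958, 2809 and 960.3 FPKM in BCB-positive oocytes, against 1703, 1907 and 2149 FPKM in BCB-negative oocytes, so that BCB-positive oocytes 2 and 3 held the highest and the lowest sum.

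SF3 is the protein complex of U2 that grips the branch point, with SF3B1 as its scaffold. None of its 9 genes was 1.5-fold apart without overlap. SF3B6, the subunit known as p14 that lies near the branch point adenosine, was the most abundant, with 327, 371 and 220.5 FPKM in BCB-positive oocytes, against 385, 399 and 325 FPKM in BCB-negative oocytes. Its difference was -0.30, and -0.08 without BCB-positive 3. SF3A2 was the least abundant, with 2.57, 0 and 0.29 FPKM in BCB-positive oocytes, against 1.61, 0.53 and 2.45 FPKM in BCB-negative oocytes. The 3 subunits of SF3A thus differed in level, since SF3A1 lay between 30.7 and 52.6 FPKM and SF3A3 between 79.4 and 185.5 FPKM.

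SF3B5 had 99.9, 155 and 84.7 FPKM in BCB-positive oocytes, against 178, 200.4 and 128 FPKM in BCB-negative oocytes, a difference of -0.59 that was past 1.5-fold with overlap. SF3B3 had 2.20, 1.74 and 12.8 FPKM in BCB-positive oocytes, against 2.58, 0.85 and 1.37 FPKM in BCB-negative oocytes. Its difference of 0.98 was 0.24 without BCB-positive 3, the single oocyte that stood out. SF3B1 itself, the scaffold, lay between 19.2 and 27.3 FPKM in BCB-positive oocytes and between 12.9 and 22.1 FPKM in BCB-negative oocytes, a difference of 0.38. SF3B1 overlaps COQ10B, which stood at 9.91 to 30.8 FPKM in BCB-positive oocytes and 6.46 to 11.5 FPKM in BCB-negative oocytes. SF3B2 and SF3B4 differed by -0.19 and -0.24, SF3A1 by 0.07 and SF3A3 by 0.56, each with overlap. SF3B2 had 4 listed transcripts of nearly equal length. The leading form made up 76.8%, 98.1% and 99.8% of SF3B2 in BCB-positive oocytes, against 66.4%, 99.8% and 37.5% in BCB-negative oocytes, while the gene as a whole stayed between 62.3 and 95.6 FPKM. The median difference of the 9 SF3 genes was -0.19, and 0.04 without BCB-positive 3.

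U2AF recruits U2 by binding the polypyrimidine tract through its large subunit. U2AF2, that large subunit, had 99.9, 51.5 and 22.4 FPKM in BCB-positive oocytes, against 54.4, 110.2 and 86.1 FPKM in BCB-negative oocytes. The difference of -0.70 was past 1.5-fold, but the classes overlapped and it was -0.16 without BCB-positive 3. U2AF1L4, a relative of the small subunit, had 16.4, 9.67 and 12.9 FPKM in BCB-positive oocytes, against 8.67, 5.29 and 18.3 FPKM in BCB-negative oocytes, with a difference of 0.38. U2AF1L4 overlaps PSENEN, which stood at 20.8 to 35.9 FPKM in BCB-positive oocytes and 24.5 to 29.9 FPKM in BCB-negative oocytes. It also overlaps IGFLR1, which was matched to no listed gene.

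The PRPF genes were named for the yeast mutants in pre-mRNA processing from which they are known. PRPF3 encodes a U4/U6 protein that holds the tri-snRNP together. It had 13.6, 17.9 and 85.5 FPKM in BCB-positive oocytes, against 10.3, 7.55 and 8.28 FPKM in BCB-negative oocytes, a difference of 1.58 with an SD of 0.99. Each BCB-positive oocyte exceeded the highest BCB-negative oocyte. BCB-positive 3 lay far above the rest, and without it the difference was 0.78, still past 1.5-fold. PRPF4, the partner of PRPF3 on U4/U6, had 46.8, 81.9 and 131.1 FPKM in BCB-positive oocytes, against 59.4, 74.2 and 59.4 FPKM in BCB-negative oocytes. Its classes overlapped, with a difference of 0.31, and -0.05 without BCB-positive 3.

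PRPF40B was the least abundant PRPF gene compared, with 0.57, 1.41 and 0.85 FPKM in BCB-positive oocytes, against 0.77, 0.94 and 2.60 FPKM in BCB-negative oocytes. PRPF18, a factor of the second catalytic step, was the most abundant, with 89.7, 98.1 and 342.7 FPKM in BCB-positive oocytes, against 68.4, 104.7 and 66.0 FPKM in BCB-negative oocytes. Its difference of 0.88 was 0.27 without BCB-positive 3, and its classes overlapped.

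PRPF8, the large scaffold protein of the catalytic core, lay between 6.95 and 8.84 FPKM in BCB-positive oocytes and between 5.47 and 7.42 FPKM in BCB-negative oocytes, a difference of 0.29 with an SD of 0.18. PRPF31, a U4/U6 protein, differed by -0.02. PRPF38A, a protein that joins before activation, had 3.72, 6.56 and 21.8 FPKM in BCB-positive oocytes, against 4.83, 16.4 and 10.1 FPKM in BCB-negative oocytes. Its difference of -0.16 was -0.80 without BCB-positive 3, and its pig entry is classed as a non-coding RNA in the naming table. PRPF38B, PRPF39 and the kinase PRPF4B differed by 0.35, -0.11 and 0.24, all with overlap. PRPF19, a ubiquitin ligase of the activation complex, and PRPF6, a bridge between U5 and U4/U6, did not reach the level for comparison and had at most 1.95 and 0.77 FPKM. The median difference of the 11 PRPF genes compared was 0.29, and 0.18 without BCB-positive 3. BCB-positive 3 was the highest oocyte for 7 of the 11, and the summed FPKM of the group was 268, 349 and 758 in BCB-positive oocytes, against 245, 307 and 236 in BCB-negative oocytes. As deposited, 7 PRPF genes had the higher mean in BCB-positive oocytes and 4 the lower, and after a common sum 8 and 3. Most genes leaned the same way as deposited, since 6669 of all 11495 genes compared were higher and 4826 lower.

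BCB-positive 3 set the range of many members. It was the lowest oocyte for 17 of the 46, or 37.0%, against 18.9% of all genes compared, and the highest for 14, or 30.4%, against 32.6% of all genes. Its low values lay mostly among short genes. Of the 29 members with a listed length under 1500 bases, a limit chosen after the values were seen, it was the lowest for 13, or 44.8%, against 25.01% of all genes of such length, and their median difference was -0.20. Of the 17 longer members it was the highest for 8, or 47.1%, against 38.4% of all longer genes, and their median difference was 0.24. Over all genes compared under 1500 bases, summed FPKM was 408095 in BCB-positive 3 and between 565914 and 589471 in each other oocyte, and the median difference was 0.03, against 0.15 for longer genes. SNRPD3, of 829 to 889 bases, was short, and its value in BCB-positive 3 was the highest of the BCB-positive oocytes. The part of transcript length in the differences between classes was not tested.

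**Figure D4:**
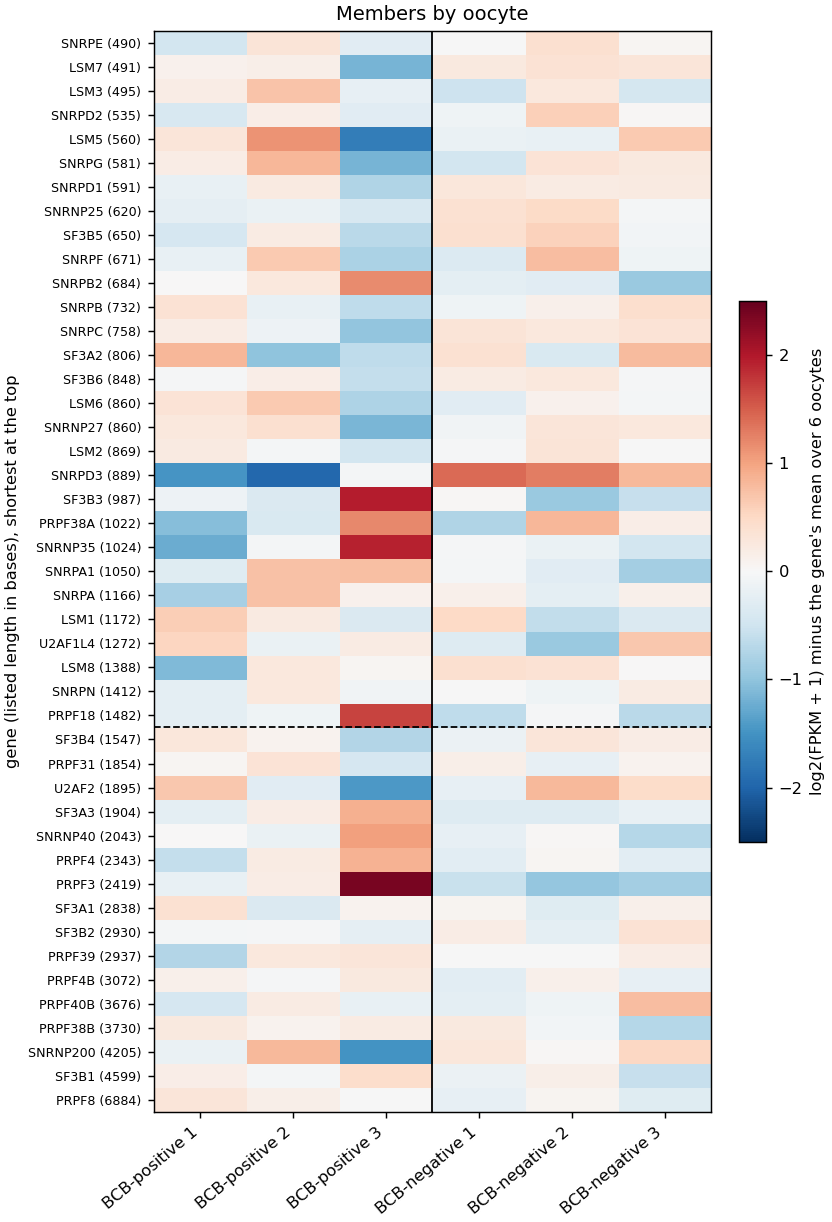
Level of 45 members in each oocyte, as log2(FPKM + 1) minus the gene's mean over the 6 oocytes, with genes ordered by listed length from short at the top to long at the bottom and a dashed line at 1500 bases. BCB-positive 3 is the lowest oocyte for 13 of the 29 genes above the line and the highest for 7 of the 16 below it, while SNRPD3 is low in BCB-positive 1 and 2.

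Partners of these proteins were described from 8 lists that hold none of the members. Of 16 genes compared that assemble Sm rings and import snRNAs, 4 were at least 1.5-fold higher in BCB-positive oocytes (18.9% of all genes were) and none lower, and only TGS1 was so without overlap (5.75% of all genes were). TGS1 adds the cap structure by which assembled snRNPs are known to re-enter the nucleus. It had 2.66, 2.93 and 1.96 FPKM in BCB-positive oocytes, against 0.32, 0.57 and 1.19 FPKM in BCB-negative oocytes, a difference of 1.08 with an SD of 0.30. These are low levels, so the size of the difference varied with the scale, and it was 1.66 from CPM and 1.86 with a pseudocount of 0.1 FPKM. The list's median was 0.38, and 0.05 without BCB-positive 3. The 11 tri-snRNP partners compared had a median of -0.01, none separated the classes, and the largest difference, 0.78, was that of PPIH, a cyclophilin bound to U4/U6. Of 12 U2 and branch point partners, DDX46, a helicase of U2, was 1.5-fold higher without overlap. DDX46 had 10.6, 11.2 and 18.9 FPKM in BCB-positive oocytes, against 6.31, 8.04 and 8.37 FPKM in BCB-negative oocytes, a difference of 0.73 that was 0.48, short of 1.5-fold, without BCB-positive 3.

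The complex around PRPF19 and its activation partners had 7 of 19 genes at least 1.5-fold higher in BCB-positive oocytes, where 18.9% of all genes were, none lower and none without overlap. Their median was 0.23, and 0.01 without BCB-positive 3, and the largest difference was 1.52 for CWC27, whose classes overlapped. The minor spliceosome had 3 of 8 partners at least 1.5-fold higher without overlap, where 5.75% of all genes were, and none lower, with a median of 0.39, and 0.47 without BCB-positive 3. RNPC3, which encodes U11/U12-65K, had 33.3, 30.3 and 72.1 FPKM in BCB-positive oocytes, against 20.3, 23.0 and 12.6 FPKM in BCB-negative oocytes, a difference of 1.17. PDCD7, another U11/U12 protein, had 9.15, 17.1 and 9.15 FPKM in BCB-positive oocytes, against 3.91, 7.86 and 5.67 FPKM in BCB-negative oocytes, a difference of 0.89. RBM48 had 10.18, 10.57 and 4.51 FPKM in BCB-positive oocytes, against 2.35, 1.13 and 4.03 FPKM in BCB-negative oocytes, a difference of 1.44. All 3 remained past 1.5-fold without BCB-positive 3, at 0.78, 1.03 and 1.79. The member SNRNP25, of the U11/U12 particle like RNPC3 and PDCD7, was lower in BCB-positive oocytes. RNPC3 and RBM48, like DDX46, overlap unnamed genes that were matched to no listed gene.

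Neither SR proteins, which bind exonic splicing enhancers, nor the exon junction complex had a gene that was 1.5-fold apart without overlap. Their medians were -0.05 over 14 genes and -0.07 over 10 genes, and their largest differences, both with overlap, were -1.53 for SRSF4 and 0.83 for UPF3A. Among 8 LSm relatives and decapping partners compared, 2 were at least 1.5-fold higher without overlap and none lower by that rule, with a median of 0.13, and -0.07 without BCB-positive 3. LSM12, an LSm relative outside the rings, had 18.3, 15.3 and 24.7 FPKM in BCB-positive oocytes, against 9.79, 8.54 and 2.72 FPKM in BCB-negative oocytes, a difference of 1.47. DCP2, the decapping enzyme that works with the cytoplasmic LSm ring, had 10.6, 12.6 and 16.2 FPKM in BCB-positive oocytes, against 7.93, 7.56 and 5.84 FPKM in BCB-negative oocytes, a difference of 0.79. DCP2 overlaps MCC, at 2.55 to 4.47 FPKM in BCB-positive oocytes and 1.19 to 1.60 FPKM in BCB-negative oocytes. EDC4, a decapping partner named after its values were seen, was lower without overlap but short of 1.5-fold, with 34.3, 33.0 and 19.9 FPKM in BCB-positive oocytes, against 41.5, 42.1 and 38.9 FPKM in BCB-negative oocytes, a difference of -0.51. All 7 partners at least 1.5-fold apart without overlap were higher in BCB-positive oocytes. They were 1 of 16, 1 of 12, 3 of 8 and 2 of 8 genes compared in their lists. The lists of 11, 19, 14 and 10 genes compared held none. By the same rule 661 of all 11495 genes compared were higher, or 5.75%, and 306 were lower, or 2.66%.

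**Figure D5:**
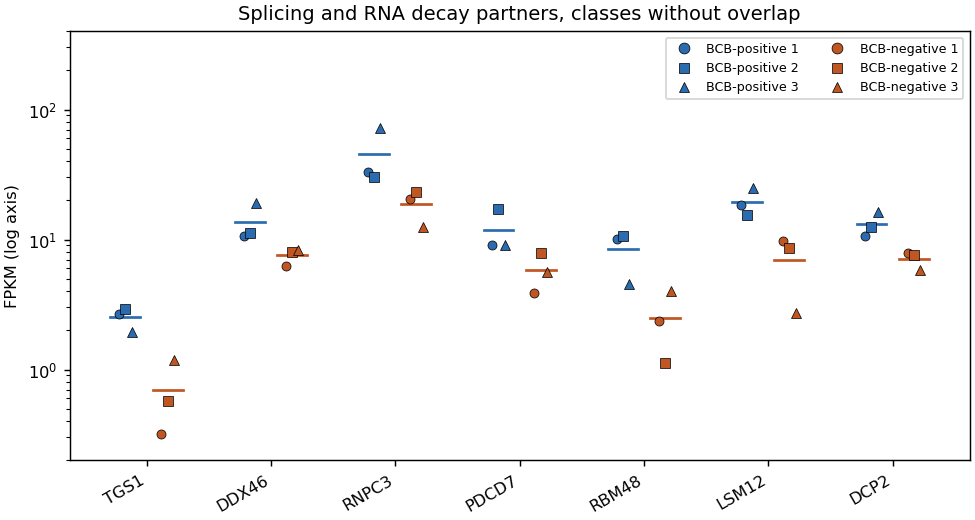
FPKM on a log axis of the 7 partner genes at least 1.5-fold apart without overlap, BCB-positive in blue and left, BCB-negative in orange and right, with a bar at the mean of each class. All 7 are higher in BCB-positive oocytes, by 0.73 for DDX46 to 1.47 for LSM12 in log2(FPKM + 1). They come from lists of 16, 12, 8 and 8 genes compared, and the lists of 11, 19, 14 and 10 genes compared held none. By the same rule 5.75% of all genes compared are higher and 2.66% lower.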

How the data were processed

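The authors' expected counts and FPKM, per gene and per transcript, were used as deposited. FPKM in the deposited files was scaled by the authors for length and depth, with 2 decimals, and the deposited expected counts are estimates that can be fractional. BWA, Cufflinks, RSEM and build Sscrofa10.2 are named in the submitters' processing notes, with roles, order and versions not given in the sources used here. Genes absent from the table of an oocyte count as 0. Symbols came from a table of assembly Sscrofa11.1, where 13936 of 19300 genes matched by gene ID; since the builds differ, no coordinates or sequences are given.

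Differences used a pseudocount of 1 FPKM and were computed for genes averaging 1 FPKM or more over the 6 oocytes. No p-value was computed. Python 3.11.15, pandas 2.3.3, numpy 2.4.6, scipy 1.17.1 and matplotlib 3.10.9 were used.

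The members, groups and lists were chosen with earlier results of these data known. Values in all oocytes were given for each Sm gene, for members at least 1.5-fold apart without overlap, and for the most and least abundant gene of each group; further members were named after their values were seen. Partner genes were named where 1.5-fold apart without overlap, or else the largest difference of the list. Alternatives were another pseudocount (0.1 FPKM), size factors (median of ratios), a common sum of FPKM, CPM from the expected counts, ratios of class means, no filter or a mean of at least 5 FPKM, and each oocyte left out. The values of 1 member compared are not reported here; it enters the counts and medians.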

Additional observations from a re-analysis of the deposited data

How the results depend on the processing

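Of 401 results recomputed under an alternative, 380 stayed within the limits set (1 SD, or 1.5 times for a count), 21 moved beyond them and 0 reversed a called difference. The tally overstates stability, because some alternatives could not move some results. The filters on low values leave the value of a single gene as it was, and scaling nearly cancels in the SNRPD3 ratio. A reversal was counted only for main differences of at least 1.5-fold, so smaller ones could change sign without being counted. SNRPD3 lay between -1.93, without BCB-positive 2, and -2.89, without BCB-positive 3. Members at least 1.5-fold lower in BCB-positive oocytes numbered 5, but 2 after a common sum, 1 by ratios of class means, 8 after size factors, and 3 to 11 when an oocyte was left out (3 without BCB-positive 3, 11 without BCB-positive 2). Of all genes compared, 9.46% were lower as deposited, 8.15% after a common sum, 8.84% by ratios of class means and 12.2% after size factors. Their share was 10.3% without BCB-positive 3 and 12.2% without BCB-positive 2. Lower members without overlap numbered 3, but 1 after a common sum and by ratios of class means, and 1 to 6 when an oocyte was left out (1 without BCB-positive 3, 5 without BCB-positive 1, 6 without BCB-positive 2 or BCB-negative 3). With an oocyte left out the overlap rule is easier to meet. Of all genes, 2.66% were lower by it as deposited and 4.40% without BCB-positive 3. The share was 6.92% without BCB-positive 1, 5.46% without BCB-positive 2 and 4.97% without BCB-negative 3. Members higher without overlap numbered 3 to 6 when an oocyte was left out (6 without BCB-positive 1 or BCB-negative 2, 5 without BCB-negative 1 or 3). The share of all genes rose too, from 5.75% as deposited to 13.7% without BCB-positive 1 and 8.73% without BCB-negative 2. It was 11.1% without BCB-negative 1 and 8.82% without BCB-negative 3. SNRPC and LSM7 were short of 1.5-fold by ratios of class means, at -0.54 and -0.50. The LSm median was 0.16 by ratios of class means and ran over -0.26 to 0.58 when an oocyte was left out (0.58 without BCB-positive 3, 0.08 without BCB-negative 3), and the SF3 median over -0.22 to 0.0435. The causes were not tested. Among single genes, TGS1 moved, to 1.66 from CPM and 1.86 with a pseudocount of 0.1 FPKM. The 4 members with a mean below 1 FPKM had at most 24 expected counts in any oocyte, and why they were low was not tested. No paired analysis was possible because each class is 1 sample of 3 cells, the labels tie no oocyte of a class to one of the other, and no test was made.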
